A study of Mus musculus with 16 samples.

Results

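The values described here are DNA methylation levels of 28757 fixed 500-bp tiles of the mouse autosomes in growing oocytes of 40–45 µm and of 50–55 µm diameter, measured by reduced representation bisulphite sequencing (RRBS). A tile was a member if at least 5 CpG cytosines with at least 5 calls each lay in it in all 4 libraries, LibA and LibB of each size class, on chromosomes 1 to 19. Of 48903 tiles that reached this in at least 1 of the 4 libraries, 28757 reached it in all 4, and 24646 of them lay in or at a gene of the RNA-seq table of the same study. Membership rested on coverage and not on methylation. The oocytes of both classes were wild-type, on a C57BL/6 background by the labels (C57BL/6Babr in the methods), untreated, and picked by diameter from ovaries of juvenile mice, so that the classes compared differ in oocyte size and, since the mice used for the smaller oocytes were on the whole younger, also in postnatal age, although their age ranges overlapped. Each library was a pool of many oocytes, and what the letters A and B mark is not given. Libraries of 60–65 µm oocytes, made by RRBS in A and B and by whole-genome post-bisulphite adaptor tagging (PBAT) in 1 library, are used to follow the same tiles later in growth, and RNA-seq libraries of the same size classes give the expression of the genes.

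Oocytes lose nearly all of their DNA methylation as primordial germ cells and rebuild it while they grow, without dividing, by the de novo methyltransferase DNMT3A and its cofactor DNMT3L. The pattern they end with lies mainly over transcribed gene bodies and includes the maternal marks of imprinted genes, whereas most gene starts with CpG-rich sequence stay free of it. Bisulphite converts unmethylated cytosine so that it reads as thymine, and RRBS samples the ends of MspI fragments, cut at CCGG, which favours CpG-rich sequence. The methylation of a tile is the mean, over its cytosines, of the percentage of calls that read as methylated, and differences between tiles are given in percentage points.

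The sequence of a few measured spans shows what a tile holds. They are the reference sequence of GRCm38, + strand, with CpGs read in all 4 libraries in capitals, and each is shown for a different behaviour. The span in Rpn1 (chr6:88100672-88100715, coding exon) is from a tile near the head of the order of rises, and those in Lef1 (chr3:131184750-131184861, exon and intron) and Rab11fip3 (chr17:26057348-26057459, intron) were close to 0 in the smaller oocytes. The span in Kcnq1 (chr7:143295373-143295501) lies in the antisense transcript Kcnq1ot1, an imprinted locus, the one in Cdh22 (chr2:165157278-165157334, coding exon) holds the only tile called lower, and the one in Map3k6 (chr4:133250732-133251002, exon and intron) stayed unmethylated inside an expressed gene.
Rpn1: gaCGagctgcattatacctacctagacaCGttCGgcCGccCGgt
Lef1: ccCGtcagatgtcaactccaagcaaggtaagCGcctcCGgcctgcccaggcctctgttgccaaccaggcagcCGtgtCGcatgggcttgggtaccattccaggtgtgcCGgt
Rab11fip3: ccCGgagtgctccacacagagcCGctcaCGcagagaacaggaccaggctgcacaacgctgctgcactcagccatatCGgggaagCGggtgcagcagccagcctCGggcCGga
Kcnq1: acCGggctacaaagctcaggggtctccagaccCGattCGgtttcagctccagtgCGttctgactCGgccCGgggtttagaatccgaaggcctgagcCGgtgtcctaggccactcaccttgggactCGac
Cdh22: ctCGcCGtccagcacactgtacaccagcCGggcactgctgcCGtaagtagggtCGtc
Map3k6: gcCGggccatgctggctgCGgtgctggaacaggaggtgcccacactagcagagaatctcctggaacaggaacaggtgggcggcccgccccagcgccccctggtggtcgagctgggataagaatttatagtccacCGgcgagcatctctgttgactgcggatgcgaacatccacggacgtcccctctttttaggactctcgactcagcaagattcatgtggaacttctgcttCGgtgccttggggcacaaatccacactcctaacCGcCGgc

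The 4 libraries held 34671599 to 57319823 calls, and the median tile held 483 to 731 calls over 10 to 15 cytosines per library. The 50–55 µm library B stood apart in several ways. It had the fewest tiles with enough cytosines, 30522 against 39688 to 46181 in the other libraries, and higher levels at the starts of germline genes, which somatic cells methylate. Over 18 tiles at the starts of such genes the mean was 1.99% and 0.737% at 40–45 µm A and B, 1.64% at 50–55 µm A and 10.2% at 50–55 µm B. The medians were 1.47%, 0.249%, 0.852% and 6.11% in the same order, and the highest tile in 50–55 µm B was at 63.7%. At the start of Mael, which acts in silencing transposons, the level was 0.347% in 50–55 µm A and 27.9% in B. Over the pair of tiles at Sycp1, a synaptonemal complex gene, it was 0.996% in A and 31.8% in B. These starts were the highest in B, and others differed. At Tdrd1 library A was the higher, at 7.64% against 1.90% in B, and Stag3 was low in both, at 0.0986% and 0.0396%. The part of somatic DNA in the values of library B was not tested, and results are therefore also given for library A alone.

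Tiles of 50–55 µm oocytes carried on average more methylation than those of 40–45 µm oocytes, and a minority of tiles carried the increase. The mean over all tiles was 2.26% and 2.23% in the 40–45 µm libraries A and B and 4.0% and 5.12% in the 50–55 µm libraries A and B, so that the classes did not overlap. The rise of 2.32 points compares with SDs of 0.0225 and 0.789 points between the libraries of a class (n = 2 each), and a permutation of 2 libraries against 2 cannot give a two-sided p below 0.333. The median tile hardly moved, at 0.700% and 0.308% in the 40–45 µm libraries and 0.735% and 0.424% in the 50–55 µm libraries. Tiles of at least 25% methylation numbered 563 and 584 at 40–45 µm and 1640 and 1977 at 50–55 µm. Most of the tiles added lay at intermediate levels: between 25 and 50% there were 247 and 261 tiles in the smaller oocytes and 1247 and 1323 in the larger, whereas tiles of at least 75% numbered 79 and 99 in the smaller and 99 and 172 in the larger. In a pool, an intermediate level in every oocyte and a mixture of methylated and unmethylated oocytes cannot be told apart.

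**Figure D1:**
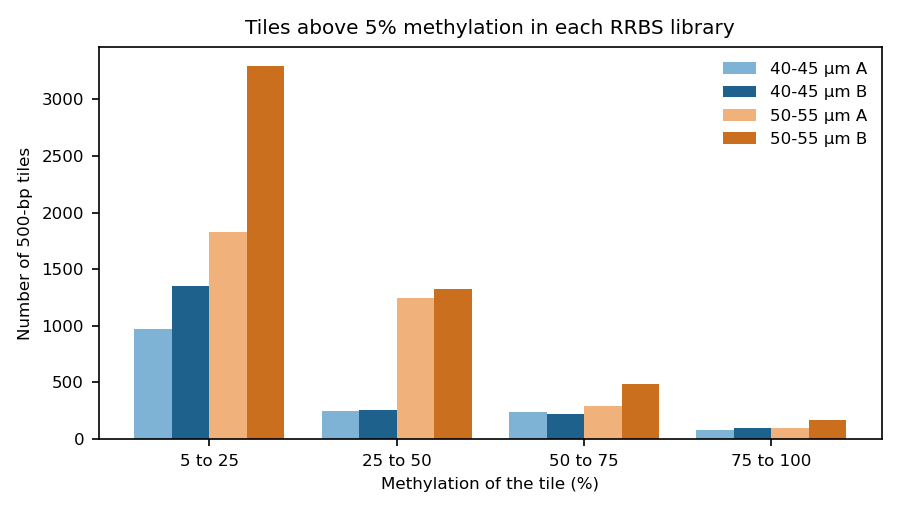
Number of 500-bp tiles (y axis) in each class of methylation above 5% (x axis, percent) in the 4 RRBS libraries, 1 bar per library. From 25 to 50% both 50–55 µm libraries hold 1247 and 1323 tiles against 247 and 261 in the 40–45 µm libraries.

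In 1552 tiles the lower 50–55 µm library exceeded the higher 40–45 µm library by at least 10 points, so that all 4 pairings of libraries rose by that much. This is 5.4% of the 28757 tiles, against 7 tiles, or 0.0243%, that fell by as much in all pairings. Leaving out 1 library raised the count of falls to between 33 and 182, the highest without 40–45 µm A. With the 50–55 µm library A as the only library of its class, the count of rises was 1849, and with library B alone it was 2773. Without the cytosines inside CCGG, an alternative added after seeing the data, it was 560 of 20290 tiles, 2.76%. Over the 1552 tiles the means were 3.98% and 3.53% at 40–45 µm and 30.7% and 34.1% at 50–55 µm. With no minimum size, 6338 tiles were higher in both 50–55 µm libraries than in both 40–45 µm libraries and 3230 were lower in both, most of them by little.

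A test of methylated against unmethylated calls, edgeR's quasi-likelihood test with Benjamini-Hochberg adjustment, was made for the 3704 tiles with a mean of 5 to 95% over the 4 libraries. It called 1067 tiles higher at 50–55 µm, 28.8% of those tested, and 1 lower, 0.027%. Of the 3704 tiles, 2391 had a mean under 5% at 40–45 µm and had entered the test through their level at 50–55 µm, so that only a rise could be called there, and 948 of them were called. Among the other 1313 tiles, which were at 5% or more at 40–45 µm, 119 were called higher, 264 rose by at least 10 points in all pairings and 7 fell by that much. The called tiles had means of 2.76% and 2.55% in the 40–45 µm libraries and 29.7% and 31.9% in the 50–55 µm libraries, with a rise of 28.1 points, and 933 of them also rose by 10 points in all pairings. Adjusted p-values of the called tiles all lay between 0.0377 and 0.05 in edgeR. Leaving out any of the 4 libraries, pairing the libraries by letter or dropping the 5% minimum left 0 tiles called, with 1043 to 2054 tiles higher at an unadjusted p under 0.05, so that the test stands on all 4 libraries together and the shares below are given for the 10-point rise.

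The 24 genes whose tiles rose most in their weakest pairing, among the tiles called higher, went from at most 16.5% in any 40–45 µm library to at least 46.1% in any 50–55 µm library. In 23 of these tiles the position was inside a gene body, 2.7 to 775.6 kb from the gene start. Their rises lay between 45.3 and 66.7 points, with edgeR adjusted p-values of 0.0377 to 0.042, and at 60–65 µm, in libraries that had no part in their choice, they had reached 66.5 to 93.0%. The remaining tile covered the start of Gm15598, which lies inside Anks1. They include Rpn1, a subunit of the oligosaccharyltransferase, Cdc37, a co-chaperone of Hsp90, and Lnx2, a ubiquitin ligase. They also include Fance, of the Fanconi anaemia core complex, Aqr, a helicase of the spliceosome, Cox10, of haem A synthesis, Abcc1, an efflux transporter, and Lef1 and Camta1, both transcription factors.

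In Flywch1, a zinc finger gene, the tile at the head of this order was at 4.97% and 14.1% in the 40–45 µm libraries A and B and at 72.0% and 78.2% in the 50–55 µm libraries. In Rpn1 the tile rose from 2.58% and 1.68% to 58.6% and 70.4%, on a gene at 9.38 RPKM at 40–45 µm. In Fance it rose from 2.33% and 4.52% to 56.0% and 84.2%. In each of these the groups were far apart, and library B was the higher at 50–55 µm. In Rab11fip3, a Rab11 effector of endosome recycling, the values were 0.468% and 0 against 49.2% and 46.3%. In Nbas, of Golgi to endoplasmic reticulum transport, both 40–45 µm libraries were at 0 and the 50–55 µm libraries were at 46.6% and 63.0%. In Lef1, the effector of Wnt signalling, the tile rose from 2.59% and 2.84% to 49.6% and 53.0%, although the gene was expressed at only 0.256 RPKM, and in Crocc, the gene of the ciliary rootlet, it rose from 3.37% and 3.06% to 47.8% and 49.2% at 0.241 RPKM. Of the 24 genes, 15 were at 1 RPKM or more at 40–45 µm, and the highest was Abhd4, a lipase, at 16.1 RPKM.

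**Figure D2:**
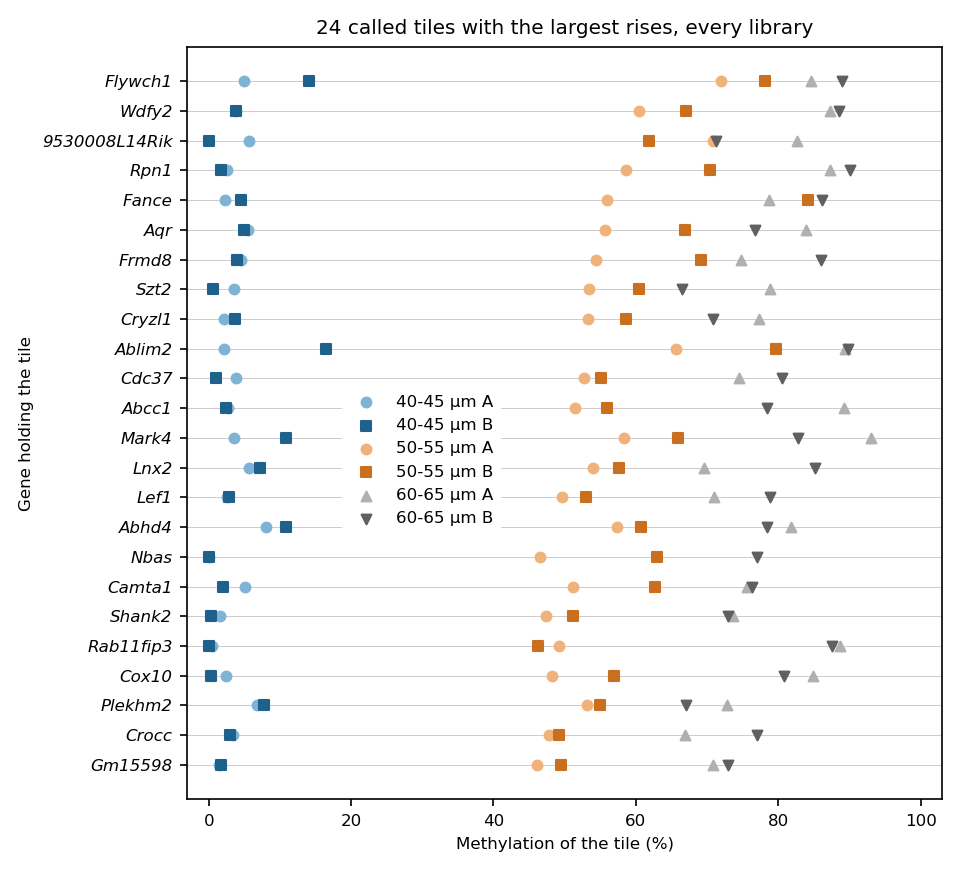
Methylation (x axis, percent) of the tile in each of the 24 genes with the largest rises among called tiles (y axis), with 1 point per RRBS library for each of the 3 size classes. All 40–45 µm points lie at or below 16.5% and all 50–55 µm points at or above 46.1%. Nbas has no 60–65 µm A point because its tile had too few cytosines there.

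Within such a tile the CpGs did not rise evenly. In the spans of Rpn1, Rab11fip3 and Lef1 the highest or the lowest CpG was the same in both 50–55 µm libraries although the full order differed, whereas in Kcnq1 neither was shared. In the Rpn1 span the first 4 CpGs were at 60.4 to 72.2% in library A and at 73.6 to 84.7% in library B, whereas the last, inside a CCGG, was at 29.6% and 32.4%, with 71 to 108 calls at each CpG. In the Rab11fip3 span the third CpG was the highest in both, at 80.4% and 72.2%, and the sixth was at 32.0% in A and at 0 of 24 calls in B, which allows up to 12.5%. In Lef1 the first CpG was the highest in both libraries, at 62.5% of 72 calls and 100% of 23 calls. The third, also inside a CCGG, was the lowest, at 23.9% and 30.3%. In the 40–45 µm libraries no CpG of these 3 spans exceeded 7.58%. Limits of this kind cover counting error only, since PCR copies of a fragment count as separate calls.

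**Figure D3:**
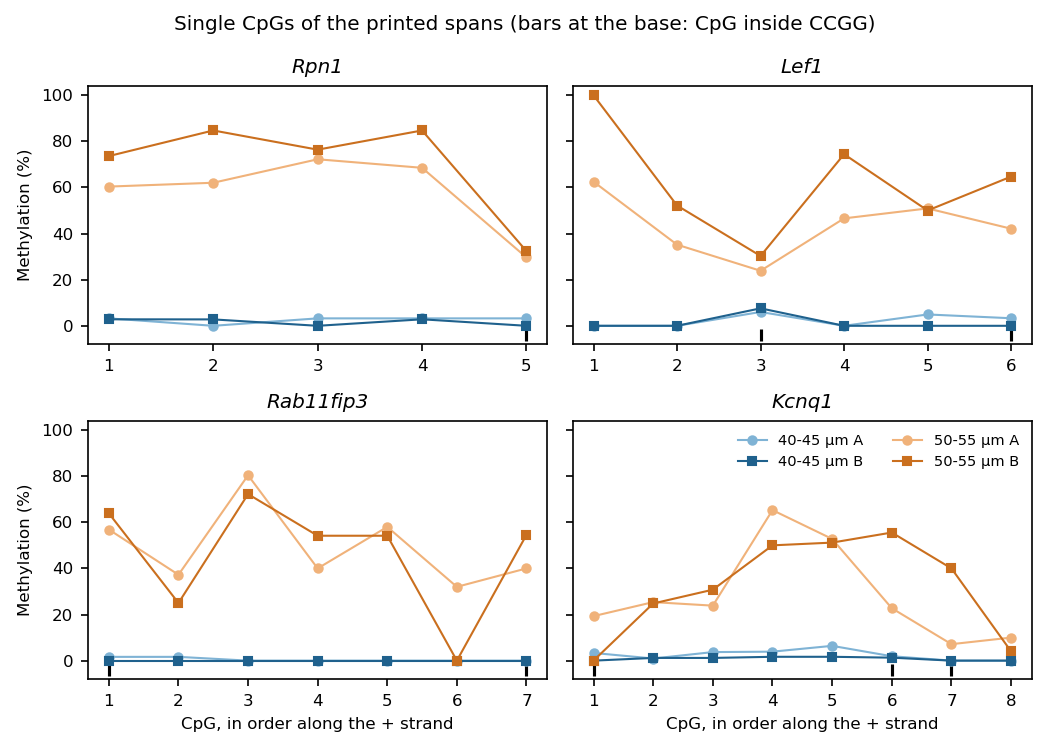
Methylation of single CpGs (y axis, percent, strands summed) in order along the + strand (x axis) for the spans of Rpn1, Lef1, Rab11fip3 and Kcnq1, 1 line per library, with a bar at the base under CpGs inside CCGG. The 40–45 µm lines stay at or below 7.58%, and both 50–55 µm lines are lowest at the last CpG of Rpn1 and at the third of Lef1.

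Over the called tiles, cytosines with at least 10 calls were spread over the whole range at 50–55 µm. In library A, 7.78% of 9699 cytosines were under 5%, 41.2% were at 5 to 25%, 36.6% at 25 to 50%, 13% at 50 to 75% and 1.46% at 75% or more. In library B, with 7227 cytosines, the ends of the range were fuller, with 19.97% under 5% and 7.10% at 75% or more. The deviation of a cytosine from the mean of its tile correlated between A and B with r = 0.445 over 7018 cytosines, and between the 60–65 µm libraries with r = 0.662 over 7990, as a description in which neighbouring cytosines share reads. Outside CCGG, cytosines of CpGs followed by A had the lowest mean of the 4 following bases in 50–55 µm A, at 28.4%, against 33.3% before C, 29.9% before G and 33.1% before T. CpGs followed by C exceeded those followed by A in 19 of 19 autosomes in 50–55 µm A and in 13 of 19 in B, where the means before C and A were 34.8% and 33.2% and the lowest was before G, at 32.0%. In the PBAT library, made without MspI and read here at cytosines of at least 5 calls, the corresponding means were 64.8% and 57.1%, again with A the lowest. CpGs inside CCGG were lower than the others in the 50–55 µm libraries, at 22.3% against 31.4% in 50–55 µm A and 24.4% against 33.6% in B, and slightly higher in the 40–45 µm libraries, at 2.68% against 2.44% in A and 2.53% against 2.18% in B. In the 60–65 µm RRBS libraries they were lower, at 48.3% against 60.6% and 50.7% against 63.5%, and in the PBAT library the difference was smaller, at 57.8% against 62.1%.

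The rise lay mostly in gene bodies and rarely at gene starts. A tile was placed at a start if it lay within 500 bp of one, in a body if it overlapped a gene elsewhere, and otherwise between genes. Of 9539 body tiles, 1404 rose by at least 10 points in all pairings, 14.7%, against 30 of 13917 start tiles, 0.216%, and 95 of 4111 tiles between genes, 2.31%. Starts that lay inside another gene were between these, at 23 of 1190, 1.93%. All these shares stand beside the 5.4% of all tiles. Body tiles were at 2.10% and 2.0% in the 40–45 µm libraries and at 6.94% and 8.80% in the 50–55 µm libraries, and start tiles at 0.784% and 0.796% and then at 0.843% and 1.03%. Bodies made up 33.2% of the tiles and 90.5% of those that rose. Bodies exceeded starts with each library of the class: with library A as the only one of its class 17.2% of body tiles and 0.366% of start tiles rose, and with library B 22.1% and 1.06%. Without cytosines inside CCGG the shares were 9.19% and 0.21%. Over the 19 autosomes the share of body tiles ran from 9.71 to 20.6% and never fell within the range of the start tiles, 0 to 0.816%.

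The starts of genes with called body tiles can be described beside those tiles, which were chosen for their rise, so that a larger rise in the body than at the start was fixed by the choice. Of 771 genes with a called tile in the body, 581 had a measured tile at their own start, and these starts had a median of 0.615% at 40–45 µm and 0.545% at 50–55 µm while the called body tiles went from a median of 2.43% to 31.6%. The start was under 5% at 50–55 µm in 561 of the 581 genes. In 7 genes at least 1 start tile rose by at least 10 points, where starts inside another gene also counted. Over all genes the shares, counted in single tiles and so in another unit, were 0.216% of 13917 at starts and 1.93% of 1190 at starts inside another gene. In Syt2, a synaptic calcium sensor, the pair of start tiles went from 3.63% to 43.4%, in Ndst1, of heparan sulphate synthesis, from 3.39% to 37.2%, and in Wscd2 from 1.68% to 23.99%, the 3 highest of the 7, named after their values were seen.

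Expression of the gene around a body tile went with its rise. Of body tiles in genes under 0.1 RPKM at 40–45 µm, 51 of 3709 rose by at least 10 points, 1.38%, against 17% of 2093 tiles at 0.1 to 1 RPKM, 27.8% of 3107 tiles at 1 to 10 RPKM and 21.3% of 630 tiles at 10 RPKM and over. The share did not climb further in the highest class: over the 19 autosomes it ran from 20 to 36.1% at 1 to 10 RPKM and from 3.70 to 42.9% at 10 RPKM and over, so that these neighbouring classes overlapped. Over the 9539 body tiles, RPKM and rise had a Spearman correlation of 0.230, from 0.115 to 0.322 within single autosomes, and 0.363 over the 5929 body tiles more than 5 kb from the start. Tiles of a gene share its RPKM, so these describe the tiles and carry no p. In the unexpressed class the 50–55 µm library A was at 2.17% and library B at 4.40%, against 1.80% and 1.74% at 40–45 µm, whereas at 1 to 10 RPKM A and B were at 11.7% and 13%.

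In expressed genes the rise was larger further from the start. In genes of at least 1 RPKM, the share of tiles that rose by 10 points was 0.204% up to 1 kb from the start, 1.01% at 1 to 2 kb, 13.6% at 2 to 5 kb, 30.5% at 5 to 10 kb, 36.2% at 10 to 20 kb and 39.6% over 50 kb. In genes under 0.1 RPKM it was 0.188% up to 1 kb and 2.79% over 50 kb. The 50–55 µm library A gave 0.802% up to 1 kb and 16.6% over 50 kb in expressed genes, and 0.909% and 3.72% in unexpressed ones. Library B gave 18.0% over 50 kb in expressed genes and 7.29% in unexpressed ones, and the 40–45 µm libraries were at 3.36 and 3.47% in the former.

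**Figure D4:**
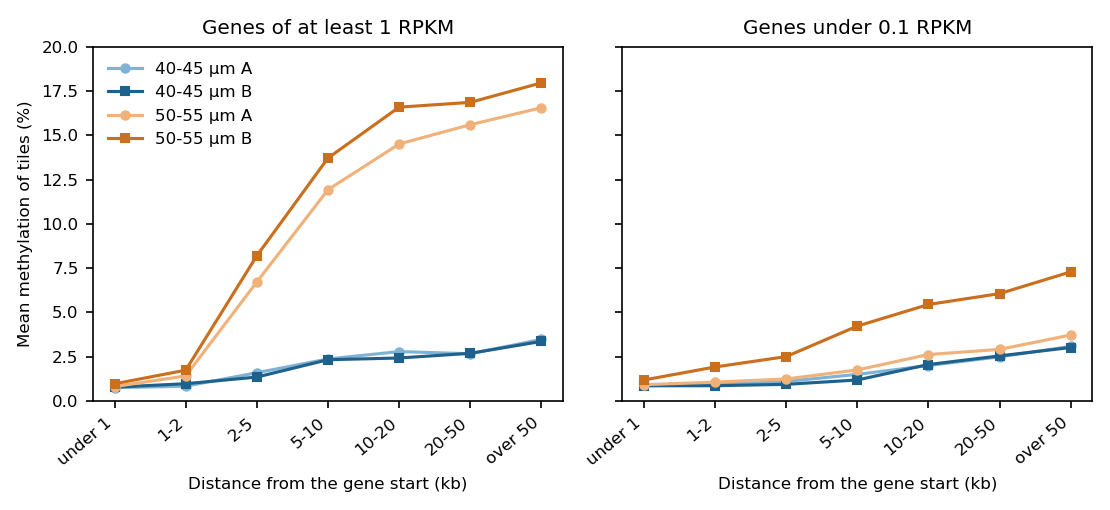
Mean methylation of tiles (y axis, percent) against distance from the start of the gene (x axis, kb) for genes of at least 1 RPKM (left) and under 0.1 RPKM (right) at 40–45 µm, 1 line per library. In expressed genes both 50–55 µm lines climb to 16.6% and 18.0% over 50 kb from the start, and in unexpressed genes library B reaches 7.29% against 3.72% in library A.

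Exons and introns both took part. By the GENCODE annotation, in genes of at least 1 RPKM and more than 5 kb from the start, 41.4% of 355 tiles wholly in exons, 44.7% of 1209 tiles with exon and intron and 34.9% of 684 tiles wholly in introns rose by 10 points. Shares were lower where GENCODE transcripts did not cover the tile, at 8.33% of 84 tiles partly in an exon and partly outside transcripts and 6.25% of 16 wholly outside them. Tiles of the same gene nevertheless differed. In 201 expressed genes with at least 3 such tiles, the level at 50–55 µm had an SD of 12.4 points among the tiles of a gene and 8.12 points between genes, so that 30.0% of the variance lay between genes.

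Tiles with fewer CpGs rose more often. Of 4273 tiles with up to 15 CpGs in their 500 bp, 18.2% rose by 10 points, against 9.79% with 16 to 25, 1.81% with 26 to 40, 0.548% with 41 to 60 and 0.163% over 60. CpG-rich tiles lie mostly at starts, but the order was the same in expressed bodies more than 5 kb from the start, at 54.6%, 45.7%, 21.8%, 6.67% and 2.83%. There the called tiles had a median of 15 CpGs, and the 798 tiles that stayed under 5% in both 50–55 µm libraries had 32. The GC box GGGCGG, on either strand, was in 26.6% of these called tiles and in 67.3% of those that stayed under 5%, beside 40.6% of all 2348 tiles in such bodies and 63.2% of all tiles of this length, and the motif itself holds a CpG.

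At the other end, the 6 tiles with the lowest levels at 50–55 µm in the bodies of genes of at least 10 RPKM were at 0 in both 50–55 µm libraries. They lay in Dnalc4, a dynein light chain, Map3k6, a kinase, Srpk1, a kinase of splicing factors, Lin28a, which binds let-7 precursors, Jag1, a Notch ligand, and D1Ertd622e. Apart from that in Map3k6, these tiles were only 0.9 to 3.1 kb from the start, where fewer tiles of expressed genes rose. The gene Jag1 was at 57.8 RPKM and its tile, 0.9 kb from the start, was at 1.41% and 0 in the 40–45 µm libraries. The Map3k6 tile was 9.9 kb from the nearest start and at 1.85% and 0.556%, and in the span printed above only its last 2 CpGs showed any methylated call, both in library B. At 60–65 µm all 6 tiles were still at 0.805% or less in both libraries.

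Falls were few. The single tile called lower, in the body of Cdh22, a cadherin gene at 0 RPKM, went from 9.97% and 15.8% at 40–45 µm to 0.444% and 0 at 50–55 µm, with an edgeR adjusted p of 0.0415. In the printed span CpG 4 was at 20% of 15 calls and 45.0% of 20 calls in the 40–45 µm libraries and at 0 of 22 and 0 of 14 calls in the 50–55 µm libraries, which allows up to 13.6% and 21.4%. The 3 tiles with the largest falls in their weakest pairing lay between genes and were not called, with unadjusted p-values in edgeR of 0.189, 0.183 and 0.0803. The largest fell from 37.5% and 50.0% to 9.60% and 14.5%.

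A small set of tiles was already methylated in the smaller oocytes. In 499 tiles both 40–45 µm libraries were at 25% or more, with medians of 56.6% and 57.6%, and at 50–55 µm the medians were 56.8% and 65.9%. More than 50% of the bases were soft-masked repeats in 413 of these tiles, 82.8%, against 861 of all 28757 tiles. Of the 499, 22 rose by 10 points in all pairings, 4.41% beside the 5.4% of all tiles, and 1 was called. They held 5 of the 7 tiles that fell by as much, where only a tile with some methylation at 40–45 µm could fall. The 5 highest that overlapped a gene lay in Cmc1, Mphosph9, 4930534B04Rik, Gm7995 and Stam, with 77.7 to 96.7% at 40–45 µm and 75.2 to 97.1% at 50–55 µm, and the groups overlapped in Cmc1, Gm7995 and Stam. Reads of repeats can come from other copies, so these positions are uncertain.

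Imprinted loci took part in the rise. Maternal imprints are methylation marks set in the oocyte that silence or activate a gene on the maternal chromosome in the embryo. Of 42 genes listed at or next to such marks, 30 had a tile, with 81 tiles in all, and 19 tiles rose by 10 points in all pairings, 23.5% against 5.4% of all tiles. The median over the 81 tiles went from 1.12% to 4.67%, beside 0.673% and 0.714% over all tiles. Of the 81 tiles, 10 were called higher by edgeR, 12.3% beside 3.71% of all tiles, in 11 genes since some overlap, and 0 lower.

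At Kcnq1, a potassium channel gene that holds the start of the silencing transcript Kcnq1ot1, the tile printed above was at 2.95% and 0.699% at 40–45 µm and at 26.98% and 27.9% at 50–55 µm, with an edgeR adjusted p of 0.0377. Over the whole tile the libraries of each class were close together. Its CpG 4 was at 65.3% and 50.0% in the 50–55 µm libraries, and its CpG 8 at 10.0% and 4.0%, but the libraries differed at CpG 1, with 19.3% and 0 of 33 calls, which allows up to 9.09%, at CpG 6, with 22.7% and 55.6%, and at CpG 7, with 7.14% and 40.0%. At Mcts2, a retrogene inside H13, the called tile was at 3.49% and 1.02% and then at 27.6% and 31.2%, and the neighbouring tile at 1.14% and 0 and then at 18.6% and 78.7%, with the 50–55 µm libraries far apart. In Gnas, of the stimulatory G protein, 4 of 13 tiles rose by 10 points and 2 were called, and the tile 16.4 kb from the start was at 2.33% and 0.798% and then at 29.8% and 32.5%. At the start of Plagl1, a zinc finger gene that restrains growth, the tile went from 3.46% and 0 to 23.4% and 44.5%, with an edgeR adjusted p of 0.0939. In Zfp64 the start tile went from 2.77% and 3.52% to 37.8% and 28.0% and was called.

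Other imprinted tiles had moved less or unevenly. The tile at Nap1l5, within Herc3, went from 1.29% and 0.366% to 9.83% and 10.5%, which was called although it rose by less than 10 points. At Grb10, an adaptor that restrains growth, the tile 12.4 kb from the start was at 15.8% and 11.8% and then at 17.04% and 14.9%, so that the classes differed by less than the libraries of the smaller class did, and at 60–65 µm it was at 41.6% and 53.0%. The next tile of Grb10 rose from 6.88% and 0 to 20.1% and 48.0%. At Zrsr1, within Commd1, 3 neighbouring tiles behaved differently: 1 rose from 0.929% and 0.19% to 22.3% and 7.05%, the next stood at 19.6% and 20.4% in the smaller oocytes already and at 26.6% and 40.3% in the larger, and the last was slightly lower in both larger libraries, at 13.6% and 17.3% against 12.5% and 11.1%, and was not called. At Impact the 40–45 µm libraries differed widely, at 2.08% and 27.9%, and the 50–55 µm libraries were at 28.6% and 26.7%, so that the classes overlapped. The list takes genes at or next to a mark, so a start tile need not be the mark itself. The start tiles of Ube3a, Zdbf2 and Socs5 were at 1.3% or less in all 4 libraries and still at 2.13% or less in both 60–65 µm libraries. Both body tiles of Socs5, by contrast, rose by 10 points, the called one from 3.46% and 2.64% to 45.6% and 24.6%. In Gpr1, on the same list, the tile rose from 4.76% and 0 to 52.0% and 59.4% and was not called.

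**Figure D5:**
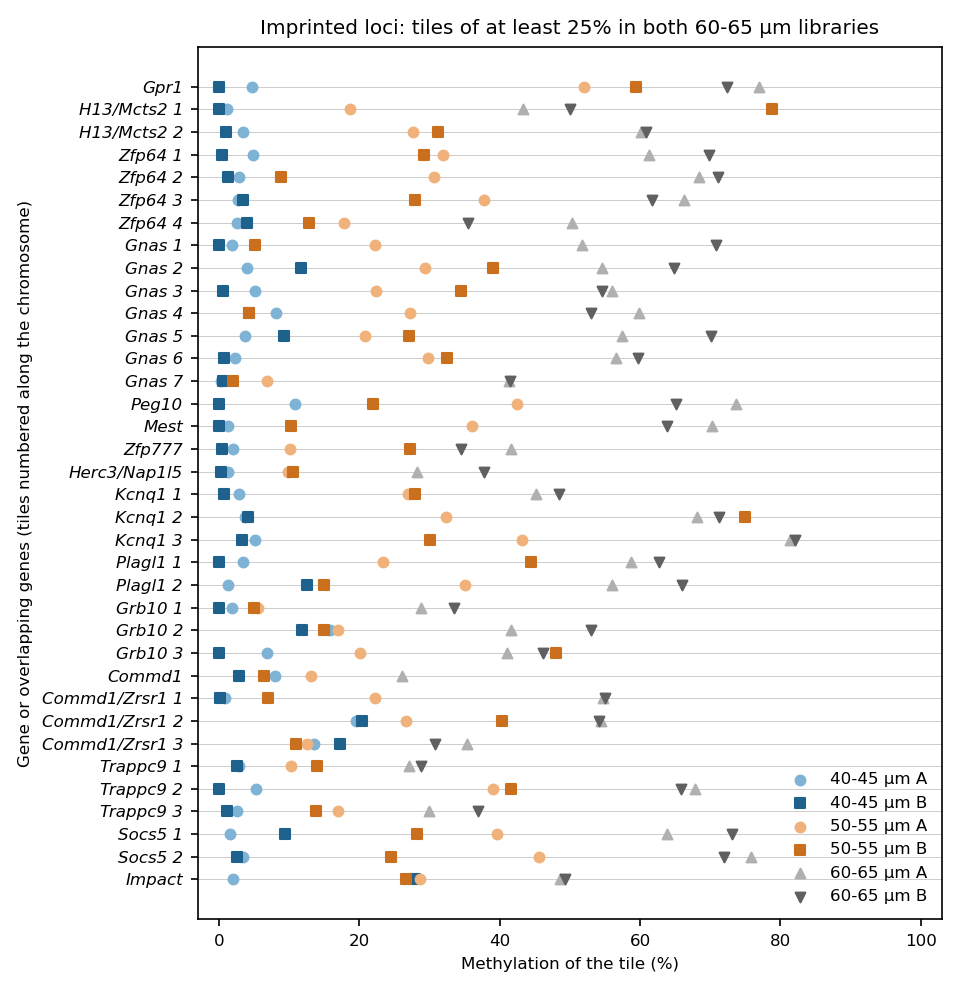
Methylation (x axis, percent) of the 36 tiles of imprinted loci that were at 25% or more in both 60–65 µm libraries (y axis, gene or overlapping genes), with 1 point per RRBS library. In 31 of the 36 both 50–55 µm points lie above both 40–45 µm points, beside 6338 of all 28757 tiles. In Grb10 2 and Commd1/Zrsr1 3 the classes lie within a few points of each other.

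Of these loci, 36 tiles were at 25% or more in both 60–65 µm libraries. Their medians were 3.20% and 1.12% at 40–45 µm, 26.8% and 26.9% at 50–55 µm and 55.3% and 59.7% at 60–65 µm, and 31 of the 36 were higher in both 50–55 µm libraries than in both 40–45 µm ones.

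Counts for the other gene lists are read beside the 5.4% of all tiles that rose by 10 points. Of 100 tiles of the Hox clusters, which encode the factors of body axis patterning, 0 were called by edgeR or rose by 10 points, although 2 were tested. Of 315 tiles of developmental transcription factors with CpG-rich starts, 2 rose by 10 points, 0.635%: the body of Gata4, from 1.04% and 0.855% to 13.8% and 25.2%, which was called, and the start of Pitx1, from 0.827% and 0 to 11.9% and 26.2%, which was not. Of 51 tiles of housekeeping genes 2 rose, 3.92%, in the bodies of Sf3b1, of the spliceosome, and Cct5, a chaperonin subunit, and 0 were called. Among 16 tiles of oocyte genes 2 rose, 12.5%, in Astl, the ovastacin gene, from 2.12% and 6.68% to 20.4% and 23.1%, and in Lhx8, a transcription factor of early oocytes, from 0.877% and 4.23% to 31.1% and 71.8%. Of these 16 tiles of oocyte genes 0 were called. Of the 18 start tiles of the germline genes 0 rose by 10 points in all pairings. The body of Mov10l1, a helicase of the piRNA pathway, rose from 8.55% and 0.576% to 46.2% and 31.7%.

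Among genes of the methylation machinery, 2 of 55 tiles rose by 10 points, 3.64%, and 4 were called higher, 7.27% beside 3.71% of all tiles, in Tet3, Whsc1l1 and Ehmt2. In Tet3, which oxidises methylcytosine, the called tiles were a start tile, from 0.827% and 0.493% to 13.8% and 8.26%, and a body tile, from 0.205% and 0 to 11.9% and 8.12%. In Whsc1l1, a histone methyltransferase, the body tile went from 1.01% and 0 to 39.5% and 44.2%, and in Ehmt2, of H3K9 methylation, from 2.04% and 2.33% to 25.7% and 25.4%. The RNA of these enzymes was measured in other libraries of the same size classes. The RNA of Dnmt3l was at 3.65 and 2.70 RPKM at 40–45 µm and at 6.21 and 5.35 RPKM at 50–55 µm, higher by 0.86 ± 0.19 (SE) on the log2(RPKM + 0.1) scale, with an adjusted p of 0.0316 in limma. Dnmt3b rose from 1.02 and 1.04 to 1.43 and 1.35 RPKM, with an adjusted p of 0.0446 in limma. For Dnmt3a the libraries were at 2.79 and 3.05 and then at 2.87 and 3.53 RPKM, with an adjusted p of 0.618, and Dnmt1, at 398 and 486 and then 402 and 454 RPKM, had an adjusted p of 0.878.

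The lists of amplicon genes that the study had chosen on these samples as early or late are not independent evidence of their direction. Of 33 tiles in the early genes 15 rose by 10 points, 45.5%, and of 14 in the late genes 1 did, in Extl3, which is 7.14% and near the 5.4% of all tiles. In Atxn1, the gene of spinocerebellar ataxia type 1, 5 tiles were called and lay up to 407.7 kb from the start, with the last of them at 4.56% and 3.12% and then 47.5% and 57.8%. In Shank2, a scaffold of the postsynaptic density, 5 tiles were called, and over all 9 of its tiles the means went from 1.501% and 2.46% to 23.2% and 27.8%. In Smarca2, an ATPase of chromatin remodelling, one tile rose from 5.43% and 3.33% to 62.8% and 44.4% and its neighbour from 4.44% and 3.70% to 37.3% and 15.5%.

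Few genes with called tiles passed the test for a change in RNA. Of 806 genes that held a called tile, 703 were tested, and 42 were higher at 50–55 µm and 12 lower by limma, which is 5.97% and 1.71%, beside 6.46% and 3.29% of all 10518 genes tested and 4.96% and 2.89% of the 7486 tested genes with any tile. The median difference on the log2(RPKM + 0.1) scale was 0.14 for genes with called tiles and 0.04 for those with any tile. Leaving out the RNA library 40–45 µm B or 50–55 µm A left 0 genes called in limma. The 806 genes had a median level at 40–45 µm of 2.08 RPKM, with quartiles of 0.798 and 4.79, against 1.27 RPKM for the 11599 genes with any tile, and 4.09% of them were under 0.1 RPKM against 27.8%. Of the 24 genes named above, 20 were tested, and 0 passed the threshold, which does not show that their RNA stayed the same: Lef1 was at 0.256 RPKM at 40–45 µm and 0.583 RPKM at 50–55 µm, with an adjusted p of 0.0562 in limma. The RNA libraries were those of oocytes by their markers, with 12 oocyte markers summing to 3706 to 4354 RPKM in the 4 libraries and 12 granulosa markers to 3.57 and 3.59 RPKM at 40–45 µm and 6.12 and 5.73 RPKM at 50–55 µm, most of it Nr5a2, at 2.43 and 2.66 and then 3.78 and 3.91 RPKM. Of the other granulosa markers, Amh, Inha, Inhbb, Fshr, Kitl, Cyp19a1 and Amhr2 were also higher in both 50–55 µm libraries, at 0.536 RPKM or less. In Inhba, Foxl2, Hsd17b1 and Wnt4 the classes overlapped. The sum of 18 markers of other ovarian and blood cells went from 6.59 and 5.33 to 9.44 and 8.69 RPKM. Myh11, at 2.74 and 2.75 and then 4.64 and 4.60 RPKM, and Pecam1, at 1.57 and 1.38 and then 3.23 and 2.90 RPKM, carried this sum, whereas the stromal collagen Col1a1 was at 0.795 and 0.244 and then at 0.25 and 0.141 RPKM. The part of such cells in the RNA differences was not tested.

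Nearly all tiles called higher were higher again at 60–65 µm. Of the called tiles, 1032 were measured in both 60–65 µm libraries, with medians of 59.6% and 61.4%, and 95.9% of them were at 25% or more in both, against 8.80% of all tiles measured there. In 976 of them, 94.6%, both 60–65 µm libraries were above both 50–55 µm libraries, against 22.8% of all tiles measured there. In the PBAT library, 97.9% of 920 called tiles were at 25% or more, against 10.3% of all 26206 tiles measured in it. Among the called tiles, 4 were lower in both 60–65 µm libraries than in both 50–55 µm libraries, beside 3106 of all 27949 tiles. They lay at 2310028H24Rik, Npas1, Atf6b and a site between genes, each with 5 to 7 cytosines in the 50–55 µm library B. In Npas1 the level was 0 and 0, then 7.78% and 23.8%, then 2.0% and 2.50%.

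Read from the other side, 1786 tiles were under 10% in both 40–45 µm libraries and at 25% or more in both 60–65 µm libraries. At 50–55 µm their medians were 25.8% and 25.99%, and 2 of the 1786 were under 5% in both libraries, 0.112%. In library A alone 0.56% were under 5%, and in library B alone 5.43%. Of 23179 tiles that were under 5% in both 60–65 µm libraries, by contrast, 99.5% were under 5% in 50–55 µm A and 92.9% in B, and 0 rose by 10 points in all pairings. The level at 50–55 µm was for the median tile 46.4% of that at 60–65 µm in library A and 47.1% in library B. By class, in bodies it was 40.0% and 41.3% in A and B for genes under 0.1 RPKM, 47.0% and 49.1% at 0.1 to 1 RPKM, 47.8% and 47.8% at 1 to 10 RPKM and 45.4% and 47.3% at 10 RPKM and over. At starts it was 38.0% and 31.7% over 56 tiles, and over 25 CpGs per tile it was 42.2% and 43.9% over 267 tiles, against 47.2% and 48.5% up to 15 CpGs.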

How the data were processed

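RRBS libraries (LibA and LibB per size class) were compared between 40–45 and 50–55 µm oocytes. The authors trimmed reads with Trim Galore 0.3.5, aligned them to GRCm38 with Bismark 0.14.0 and deposited, per CpG cytosine, the percent methylated and the counts of methylated and unmethylated calls, strands apart; removal of duplicates is not stated for RRBS. The deposited RNA table holds RPKM per gene, with coordinates; it carries the word counts in its name, but its values are not whole numbers. Percent was computed again from the call counts at cytosines of at least 5 calls and averaged per 500-bp tile with at least 5 cytosines in each of 4 libraries. Calls were tested with edgeR 4.0.16 (quasi-likelihood, tiles of 5 to 95% mean), and RNA with limma 3.58.1 on log2(RPKM + 0.1), for genes of at least 0.5 RPKM in 2 of 8 libraries, with Benjamini-Hochberg adjustment and a threshold of 0.05; both were tested on simulated data. Whether the libraries of a class came from separate animals is not stated, so p-values measure the spread between these libraries. The expression of a tile is that of its overlapping gene with the highest RPKM. What a letter marks is not given, so the libraries were treated as unpaired. Deviations of A correlated with r = 0.0158 between classes, which cannot show whether libraries of a letter share animals or a batch. Exons are from GENCODE vM21 and sequence from the NCBI copy of GRCm38, on which every listed cytosine fell on a CpG. Named tiles are the 24 genes with the largest rise in the weakest pairing among called tiles, falls, the 5 highest at 40–45 µm, the 6 lowest in bodies of genes of at least 10 RPKM, and members of gene lists. The members, lists and the 5% minimum were chosen with earlier results of these data known.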

Additional observations from a re-analysis of the deposited data

Results flagged for a closer look

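Cytosines with fewer than 5 calls, which entered no tile, had a mean methylation of 50.1% in the 50–55 µm library A, over 845372 cytosines, against 16.4%, 3.47% and 16.4% in the other 3 libraries compared. Of these cytosines, 40.4% lay within 40 bases of a CCGG, against 84.7 to 95.3% in the other libraries, and of the cytosines with at least 5 calls in the same library 99.5% did. With tiles built only from cytosines within 40 bases of a CCGG, 1549 tiles rose by at least 10 points, against 1552.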

How the results depend on the processing

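The count of tiles called higher, 1067, depended on the test. It was 0 with no minimum of mean methylation (2054 at an unadjusted p under 0.05), 0 by limma with no minimum (2703), added after seeing the data, and, with any library left out, 0 (1043 to 1805). The fit with a replicate block by letter also called 0 (1660), and whether the letters pair the libraries is not known. It was 1715 with all 6 RRBS libraries in 1 fit, 225 with 10 cytosines per tile, where 516 tiles were tested, and 332 without cytosines inside CCGG. Other alternatives gave 945 to 1559, and limma's 1559 shared 945 with edgeR's. The single tile called lower became 0 with no minimum, a minimum of 10%, the replicate block, 10 calls per cytosine, 10 cytosines per tile or any library left out, and 2 with limma, 6 libraries, longer tiles or summed strands.

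The count of tiles rising by 10 points, 1552, was 825 at 20 points, 230 with 10 cytosines per tile, 560 without cytosines inside CCGG and 1673 to 2773 with a library left out, the highest without 50–55 µm A, beside 33 to 182 falls against 7. Without cytosines inside CCGG the mean rise was 1.267 points and the share of body tiles 9.19%, and with a 50–55 µm library left out that share was 17.2 to 22.1%. The correlation with expression was 0.363 over 5 kb from the start. Among genes with called tiles, RNA calls were 27 higher and 2 lower with no filter, 63 and 18 with the replicate block, and 0 to 22 higher and 0 to 5 lower with an RNA library left out. For 52 named tiles, direction was the same in all 726 comparisons, and 371 lost the call. These tiles were taken from those called on the same libraries, so that a kept direction was nearly fixed by the choice. The cause of these shifts was not tested. Depth limits single tiles most in 50–55 µm B.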
